A study of Mus musculus with 12 samples.

Results

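Expression was examined for 9 mouse genes of carbonic anhydrases and of red cell antioxidant and related metabolic enzymes: Car1, Car2, Bpgm, Cat, Prdx2, Gpx1, Blvrb, Hmox1 and Sod1. A member is every array probe set that the platform annotation assigns to exactly 1 of these symbols, which gave 17 of 45101 probe sets. RNA was measured on Affymetrix mouse expression arrays in mouse erythroleukemia (MEL) cells, a leukemia line arrested at an early erythroid stage that takes on red cell features when given dimethyl sulfoxide (DMSO). There were 3 arrays of cells with knockdown of G9a (gene Ehmt2), an enzyme that methylates lysine 9 of histone H3, and 3 arrays of wild type cells, each numbered 1 to 3. Per the labels' protocols, cells of both groups were cultured with 2% DMSO for 4 days, and 5 micrograms/ml of doxycycline induced the knockdown. That protocol text is attached to the arrays of both groups alike, and does not say separately whether wild type cells received doxycycline, what the knockdown construct was, or how many clones were used. Nor do they state that each numbered array is its own culture, and the p-values then cover only array-to-array spread, part of which may be technical.

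Red blood cells carry carbon dioxide largely as bicarbonate, and carbonic anhydrases catalyse that conversion in both directions. The same cells hold iron and oxygen at high concentration, so they depend on enzymes that remove superoxide and hydrogen peroxide. Superoxide dismutase makes hydrogen peroxide from superoxide, and catalase, peroxiredoxin and glutathione peroxidase remove it. Peroxiredoxin and glutathione peroxidase draw on NADPH, which the pentose phosphate pathway supplies. Heme oxygenase turns heme that is not held in protein into biliverdin, and biliverdin reductases act on biliverdins. Many of these enzymes accumulate as erythroid cells mature.

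Values are GCRMA log2 values, the deposited background-corrected and normalized summary of each probe set, and differences are knockdown minus wild type with the replicate number as a block, tested with limma and adjusted over all 17028 probe sets that lay above log2 4 on at least 3 of the 6 arrays. Ehmt2, the targeted gene, fell in every knockdown array. It read 6.67, 7.33 and 7.58 in knockdown arrays 1 to 3, against 9.92, 10.03 and 10.23 in wild type arrays 1 to 3, at probe set 1460692_at (difference −2.87, limma adjusted p = 0.0316). Of 12 listed erythroid markers, all 10 with a probe set passed the filter, among them Gata1, the erythroid GATA factor (13.09 to 13.72), and Slc4a1, the band 3 anion exchanger (6.93 to 8.41). Of the myeloid markers, 3 of 15 measured passed the filter, Prtn3 (3.97 to 6.30), Csf1r (6.32 to 6.81) and Spi1 (6.17 to 7.61), while the granule genes Mpo and Elane lay between 1.92 and 2.31 on every array. By contrast 0 of 8 measured lymphoid and 0 of 8 measured fibroblast and endothelial markers passed the filter. Of other lineages, 2 of 7 measured megakaryocyte markers (Pf4 and Itga2b) and 1 of 8 mast cell and basophil markers (Mcpt2) passed it.

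Of the 17 member probe sets, 15 passed the filter and 2, both for Sod1, did not. None of the 15 passed the limma threshold of an adjusted p under 0.05 with the block, where 0.0117% of all tested probe sets did (2 probe sets, both for Ehmt2), and 0 passed without the block (0.00587% of all) or in the MAS5 values (0.0% of all). At an unadjusted p under 0.05 there was 1 member, Car1, against 13.7% of all tested probe sets. The groups did not overlap at 1 member, again Car1, against 12.4% of all tested probe sets. A positive difference was found at 10 of 15 members, against 48.3% of all. The median difference of the 15 was 0.041, beside −0.0083 over all tested probe sets, and 14 of the 15 lay within 0.25 of 0 on the log2 scale, as did 77.2% of all. The Car1 difference was the largest of the 15, and the other 14 lay between −0.23 and 0.19. By the threshold, no difference was detected at any of them, Car1 included. In MAS5 the targeted gene Ehmt2 did not pass either (limma adjusted p = 0.295 at 1460692_at and 0.419 at 1426888_at). A missing call, in MAS5 above all, therefore does not show that a level was unchanged.

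**Figure D1:**
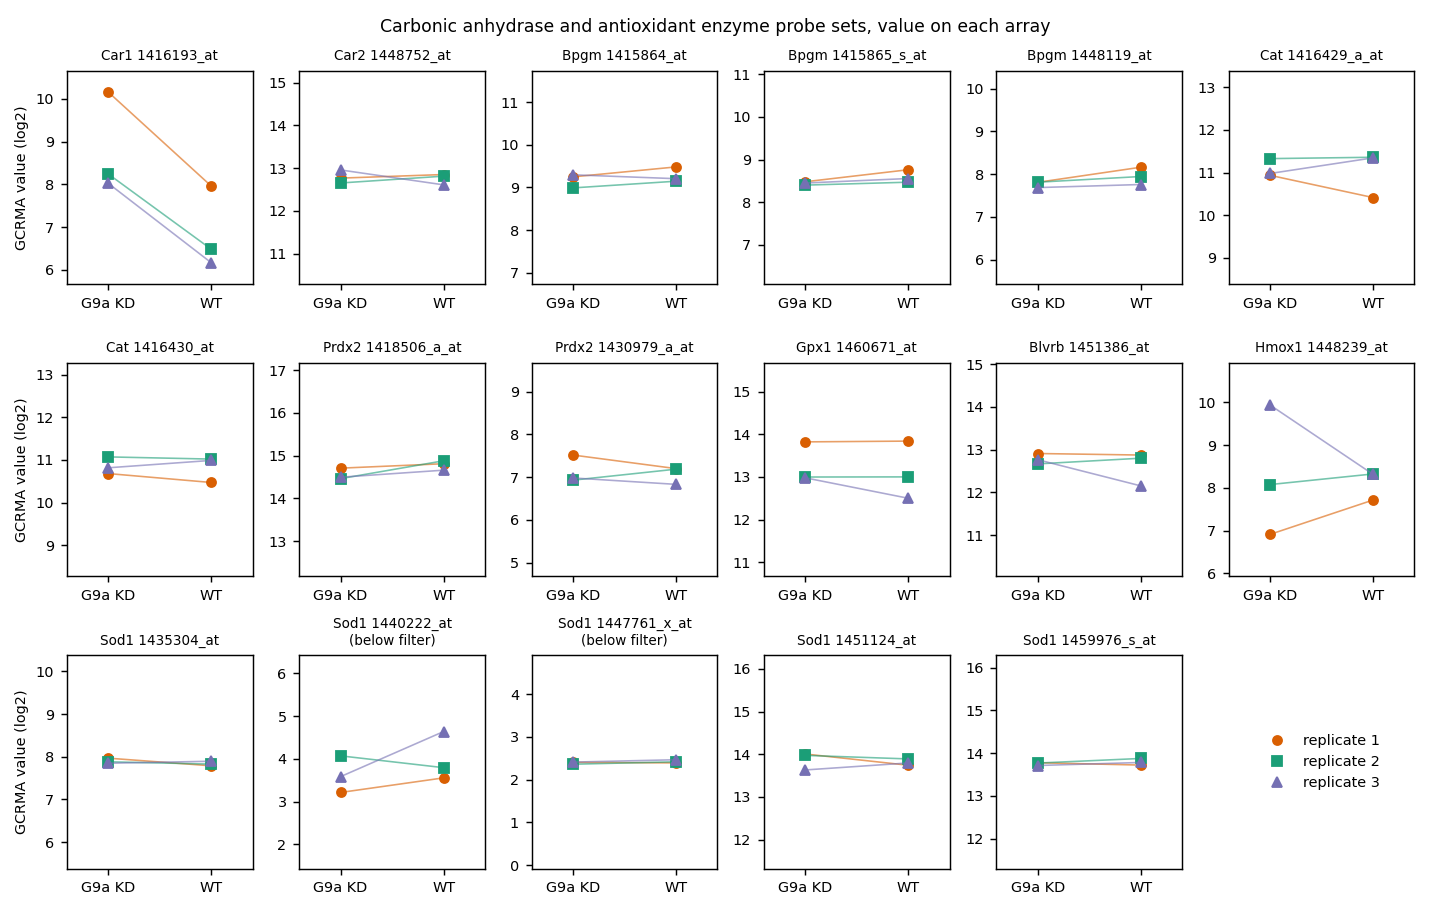
GCRMA log2 value of each of the 17 member probe sets on each array, knockdown left and wild type right, with a line joining arrays of the same replicate number. The vertical axes start at different levels. All 3 Car1 lines slope the same way and Hmox1 spreads most among knockdown arrays, while most other lines are close to level.

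The carbonic anhydrases gave the largest contrast within the set. Car1, which encodes the cytosolic carbonic anhydrase I of red cells, read 10.16, 8.24 and 8.02 in knockdown arrays 1 to 3, against 7.96, 6.48 and 6.16 in wild type arrays 1 to 3. The lowest knockdown value lay just above the highest wild type value, and the number 1 array was the highest in both groups. Within each number the knockdown array was higher, by 2.20, 1.76 and 1.86. The mean difference was 1.94 (SE 0.12, 95% interval 1.63 to 2.25), a 3.84-fold higher level with an interval of 3.10 to 4.77. Only 1 of the 17028 tested probe sets had a larger positive difference, and 2, both for Ehmt2, had a lower limma p.

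The Car1 difference nevertheless missed the threshold, with an unadjusted limma p of 1.06e-05 and an adjusted p = 0.0602. It passed with a stricter filter on dim probe sets (adjusted p = 0.0166) and with a variance prior that follows the signal level (adjusted p = 0.0202). Without the block its SE was 0.69 and its adjusted p = 0.794, since the spread among numbers then counts as error. The difference was 1.81 without number 1, 2.03 without number 2 and 1.98 without number 3. In the deposited MAS5 intensities Car1 read 2667, 885 and 769 in knockdown arrays 1 to 3, against 653, 356 and 338 in wild type arrays 1 to 3, a log2 difference of 1.51 (SE 0.20, limma adjusted p = 0.374). The groups did not overlap there either, as for 6.64% of all tested probe sets in that direction and for Sod1 at 1459976_s_at. The Car1 difference was 1.51 to 2.03 over the 9 alternatives run, whereas its call depended on the fit. Only MAS5 used another summary of the arrays. The other alternatives reused the GCRMA values, in which every number was positive, so their shared sign is no separate check.

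**Figure D2:**
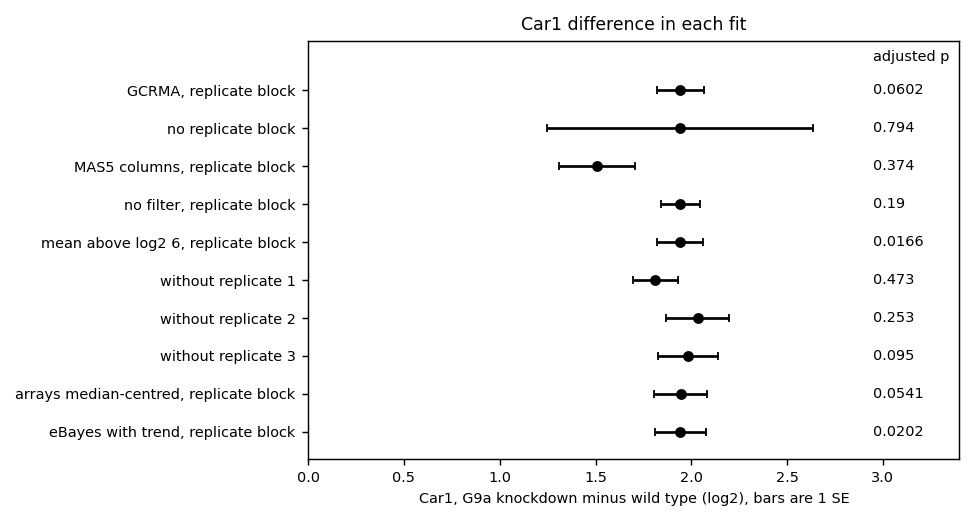
Difference of Car1 (knockdown minus wild type, log2, horizontal axis) in the blocked GCRMA fit and in each of 9 alternatives, with bars of 1 SE and the adjusted p printed at the right. The differences lie between 1.51 and 2.03 and the SE is widest without the replicate block.

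Car2 encodes the second abundant red cell isozyme, carbonic anhydrase II. It read 12.77, 12.65 and 12.96 in knockdown arrays 1 to 3, against 12.85, 12.81 and 12.61 in wild type arrays 1 to 3. The groups overlapped, and the difference of 0.035 had a 95% interval of −0.30 to 0.37, so a change of the size seen at Car1 lies well outside it. Within numbers, the Car1 difference exceeded that of Car2 by 2.29, 1.92 and 1.51 (two-sided exact sign-flip p = 0.25, the smallest possible with 3 pairs). In the order of protein-coding genes on chromosome 3 of the RefSeq GRCm38.p6 table, Car13, Car1, Car3 and Car2 follow each other directly. Car3, the muscle and fat isozyme, did not pass the filter at any of its 4 probe sets. Car13, a further cytosolic isozyme, read 6.42, 6.65 and 6.67 in knockdown arrays 1 to 3, against 6.58, 5.65 and 5.94 in wild type arrays 1 to 3. Its difference of 0.53 did not pass (limma adjusted p = 0.402) and was −0.060 at the dimmer tested one. Of 16 carbonic anhydrase genes with a probe set, 4 passed the filter. These were Car1, Car2, Car13 and Car15 (difference 0.19), all 4 with a positive difference (median 0.36), and the other 12 lay between 1.85 and 3.41 on every array at their brightest probe set.

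Genes with a profile like that of Car1 over the 6 arrays were ranked by Pearson's r among 1106 probe sets with an SD of at least 0.5, as a description only. The 3 closest were Tgm1, a transglutaminase gene (r = 0.98), Dmtn, which encodes the red cell membrane skeleton protein dematin (r = 0.97), and Podxl, which encodes the surface sialomucin podocalyxin (r = 0.97). The profile combines high number 1 arrays with a higher level in knockdown within each number. Dmtn, for instance, read 10.67, 10.01 and 9.57 in knockdown arrays 1 to 3, against 9.93, 9.22 and 9.06 in wild type arrays 1 to 3, a difference of 0.68 (dimmer probe sets 0.39 and 0.13).

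Red cell maturation genes were set beside Car1 as a list of mostly membrane, blood group and heme synthesis genes. Of 17 tested, 13 had a positive and 4 a negative difference, with a median of 0.25 beside −0.0083 over all tested probe sets. At an unadjusted limma p under 0.05, 7 were higher and 2 lower (6.44% and 7.24% of all tested probe sets), and 0 passed after adjustment. The 5 with the lowest p were the blood group and surface protein genes Ermap (0.74), Kel (0.73), Rhd (0.54) and Icam4 (0.51), and Dmtn (0.68). Their limma adjusted p lay between 0.169 and 0.209. The 2 lower genes were Bcl2l1 (−0.32, and −0.39 and −0.45 at its dimmer probe sets) and Tspo2 (−0.33). At the brightest probe sets their limma adjusted p was 0.31 and 0.338. Slc4a1 differed by −0.16 at its brightest probe set (95% interval −0.94 to 0.61) and by −0.45 at the other tested one. At the brightest the differences by number were 0.078, −1.09 and 0.52, so the sign was not shared. Of the 10 tested erythroid markers, 6 were positive and 4 negative (median 0.089). Among them the transcription factor genes Lmo2 (0.63), Klf1 (0.40) and Nfe2 (−0.30) and the transferrin receptor gene Tfrc (−0.23) differed in both directions. At an unadjusted limma p under 0.05, 2 erythroid markers were higher (Lmo2 and Klf1) and 0 lower, beside 6.44% and 7.24% of all tested probe sets. After adjustment 0 passed. The 3 myeloid markers above the filter, of 15 measured, differed unequally. Prtn3, a granule protease gene, differed by 1.19 (limma adjusted p = 0.21). In wild type arrays 1 to 3 it read 5.25, 4.35 and 3.97, near the filter level of log2 4. Spi1 differed by 0.42, and Csf1r by −0.049 (0.44 at its dimmer probe set). The megakaryocyte markers Itga2b and Pf4 differed by −0.71 (limma adjusted p = 0.226) and −0.12. At Itga2b all knockdown arrays lay below all wild type arrays, as for 7.33% of all tested probe sets. The part of these shifts in the Car1 difference was not tested. In bulk RNA, more cells expressing a gene and more RNA per cell cannot be told apart.

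Bpgm encodes bisphosphoglycerate mutase, which makes the red cell metabolite that lowers the oxygen affinity of hemoglobin. Its brightest probe set, 1415864_at, read 9.25, 8.99 and 9.30 in knockdown arrays 1 to 3, against 9.48, 9.15 and 9.20 in wild type arrays 1 to 3. The groups overlapped at all 3 Bpgm probe sets, with differences of −0.10, −0.15 and −0.19. The intervals reached from −0.45 to 0.18 over the 3 probe sets, and the limma adjusted p from 0.488 to 0.73. At the dimmer pair of probe sets the knockdown array was lower in all 3 numbers. Including Prdx2 below and Car1, 4 members had 1 sign at all 3 numbers, against 37.9% of all tested probe sets. Of 6 tested genes of lower glycolysis and the bisphosphoglycerate branch, 3 were positive and 3 negative (median −0.041). An unadjusted limma p under 0.05 was found at 0 of them, beside 13.7% of all tested probe sets. The pyruvate kinase gene Pkm differed by −0.19, and Pklr by 0.15 and, at its dimmer probe set, by −0.34.

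The enzymes that act on superoxide and hydrogen peroxide showed no difference past the threshold. Sod1 encodes the cytosolic copper and zinc superoxide dismutase. At probe set 1451124_at it read 14.01, 13.97 and 13.63 in knockdown arrays 1 to 3, against 13.74, 13.89 and 13.80 in wild type arrays 1 to 3. Its 3 tested probe sets differed by 0.062, 0.060 and −0.042, with intervals that together reached from −0.29 to 0.36. The 2 Sod1 probe sets below the filter read 3.21 to 4.64 (1440222_at) and 2.36 to 2.46 (1447761_x_at), and 1440222_at averaged 3.62 ± 0.43 in knockdown arrays and 4.00 ± 0.57 in wild type arrays (SD, n = 3 each).

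Cat encodes catalase, which splits hydrogen peroxide into water and oxygen. At 1416429_a_at it read 10.93, 11.33 and 10.98 in knockdown arrays 1 to 3, against 10.41, 11.36 and 11.34 in wild type arrays 1 to 3. Wild type 1 was the lowest array and the groups overlapped. The differences by number were 0.52, −0.033 and −0.37, and their mean of 0.041 (95% interval −0.42 to 0.50) turned to −0.20 without number 1. The other Cat probe set, 1416430_at, differed by 0.029 (−0.26 to 0.32).

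Prdx2 encodes peroxiredoxin 2, among the most abundant proteins of the red cell after hemoglobin. Its bright probe set, 1418506_a_at, read 14.71, 14.46 and 14.50 in knockdown arrays 1 to 3, against 14.81, 14.88 and 14.66 in wild type arrays 1 to 3. The knockdown array was lower in all 3 numbers, although knockdown 1 exceeded wild type 3. The difference of −0.23 (95% interval −0.50 to 0.046) had the lowest p among the 14 members other than Car1 (unadjusted 0.0862, limma adjusted p = 0.429). It was −0.039 in MAS5, and 0.070 in GCRMA at the dimmer probe set 1430979_a_at.

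Gpx1 encodes glutathione peroxidase 1, a selenium enzyme that reduces hydrogen peroxide with glutathione. It read 13.82, 13.00 and 12.98 in knockdown arrays 1 to 3, against 13.84, 13.00 and 12.50 in wild type arrays 1 to 3. Arrays of number 1 were high in both groups, and the members of pairs 1 and 2 were almost equal in GCRMA. The difference of 0.15 (95% interval −0.19 to 0.49, limma adjusted p = 0.662) was −0.011 without number 3. In MAS5 the log2 differences by number were 0.28, 0.090 and 0.34, with a mean of 0.24 (limma adjusted p = 0.525).

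**Figure D3:**
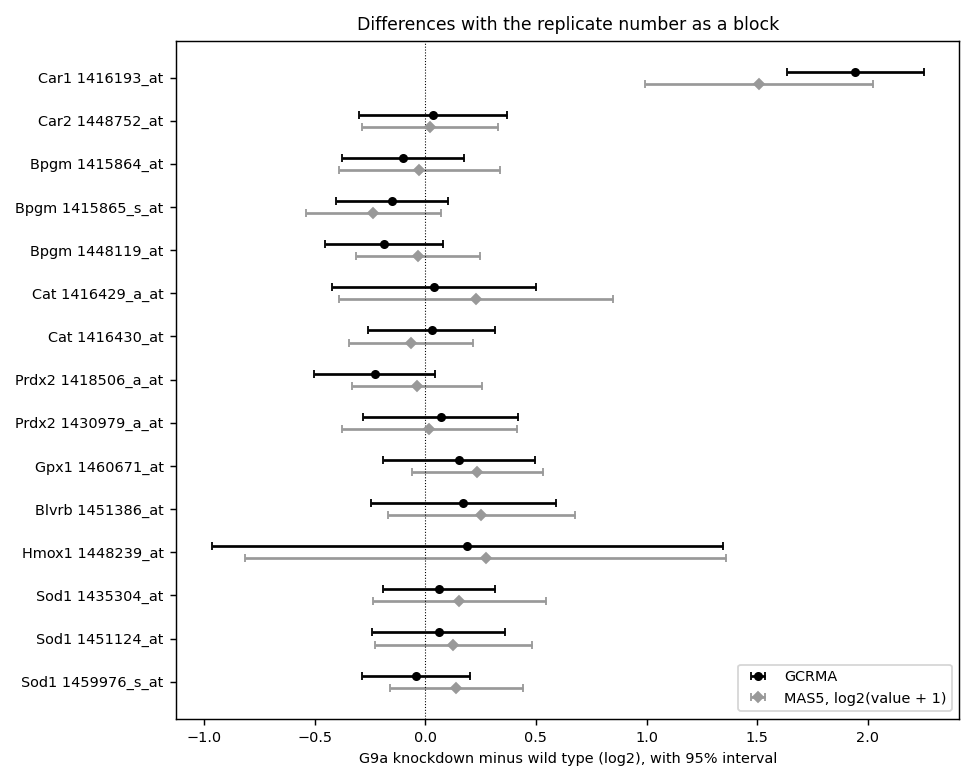
Difference of each of the 15 tested member probe sets (knockdown minus wild type, log2, horizontal axis) with its 95% interval, in GCRMA (black circles) and in MAS5 as log2(value + 1) (grey diamonds). The Car1 interval lies above 0 in both summaries, and the other 14 include 0 in GCRMA.

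Hmox1, the inducible heme oxygenase that opens the heme ring and is a standard marker of oxidative and heme stress, varied more than any other member among knockdown arrays. It read 6.91, 8.08 and 9.94 in knockdown arrays 1 to 3, against 7.72, 8.33 and 8.32 in wild type arrays 1 to 3. Knockdown 1 was the lowest of the 6 arrays and knockdown 3 the highest, and the SD was 1.53 in knockdown and 0.35 in wild type. By number the differences were −0.80, −0.25 and 1.62, so the mean of 0.19 (95% interval −0.96 to 1.34, limma adjusted p = 0.885) describes none of the pairs. Without number 3 it was −0.53. In MAS5 knockdown 1 was again lowest and knockdown 3 highest, with 446, 625 and 1697 in knockdown arrays 1 to 3, against 700, 625 and 612 in wild type arrays 1 to 3.

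The 3 genes whose profile over the arrays was closest to that of Hmox1 were Dis3l2, an exoribonuclease gene (r = 0.97), Neu1, the lysosomal sialidase gene (r = 0.95), and Ciart, a circadian repressor gene (r = 0.95). In each, knockdown 3 was the highest of the 6 arrays. Blvrb, the biliverdin and flavin reductase that is abundant in red cells, read 12.91, 12.67 and 12.77 in knockdown arrays 1 to 3, against 12.88, 12.80 and 12.15 in wild type arrays 1 to 3. Only wild type 3 lay apart, and the difference of 0.17 (95% interval −0.25 to 0.59, limma adjusted p = 0.689) was −0.049 without number 3. Of 8 tested genes of heme breakdown and handling, 5 were positive and 3 negative (median 0.049). An unadjusted limma p under 0.05 was found at 0 of them, beside 13.7% of all tested probe sets. The porphyrin transporter gene Abcb6 differed by 0.18, the ferrochelatase gene Fech by 0.091, and the ferritin heavy chain gene Fth1 by −0.058. The constitutive heme oxygenase gene Hmox2 differed by −0.038, and the heme exporter gene Flvcr1 by 0.0070.

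For 13 of the 15 tested members, the range among the means of the 3 replicate numbers exceeded the difference between knockdown and wild type, as it did for 81.5% of all tested probe sets. Number 1 lay above the mean of numbers 2 and 3 by 1.83 for Car1 and 0.96 for Gpx1, and below it for Hmox1 (−1.35) and for both Cat probe sets (−0.58 and −0.40). By this measure, number 1 against the mean of numbers 2 and 3, the 3 tested Sod1 probe sets (−0.036 to 0.051) and Car2 (0.051) moved least. By the range among all number means, Sod1 1451124_at (0.22) moved more than Prdx2 1418506_a_at (0.18). The range stayed below the difference at Prdx2 1418506_a_at and Sod1 1435304_at. What a number stands for is not given in the labels.

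The stretch of 100 bases before the annotated start is shown for Gpx1, Cat and Sod1. Between number 1 and the other numbers, Gpx1 and Cat moved in opposite directions, and Sod1 was among the members that moved least. The sequences are from RefSeq promoters of GRCm38.p6, which matched 6 of the 9 genes (not Car1, Car2 or Hmox1). Capitals mark, on either strand, the letters CCACCC (the core of a box bound by Krüppel-like factors), the CCAAT box, the TATA box written as TATAAA, and TGACNNNGC (the core of the element bound by NRF2 and NF-E2). The GATA factor core AGATAA was searched as well, and no 2 marked stretches overlap in the sequences shown.
Gpx1 (chr9:108338980-108339079, plus strand): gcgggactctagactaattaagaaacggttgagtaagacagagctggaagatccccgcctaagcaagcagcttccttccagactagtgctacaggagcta
Cat (chr2:103485154-103485253, minus strand): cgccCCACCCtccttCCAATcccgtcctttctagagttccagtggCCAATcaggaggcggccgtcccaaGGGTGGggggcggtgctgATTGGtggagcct
Sod1 (chr16:90220662-90220761, plus strand): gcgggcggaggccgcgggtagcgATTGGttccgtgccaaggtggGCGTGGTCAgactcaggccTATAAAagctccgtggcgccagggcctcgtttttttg
In the 250 bases searched, Cat held 3 CCACCC and 4 CCAAT matches, Gpx1 held 0 matches of any of the 5 letter strings, and Sod1 held 1 CCAAT match, 1 match of TATAAA and 1 of TGACNNNGC. Of all 32851 promoters of that length, 28.1% held CCACCC, 33.8% held CCAAT, 12.4% held TATAAA, 10.2% held TGACNNNGC and 9.99% held AGATAA. The last was in 0 of the members' promoters. A match is a description of the letters and not a binding site.

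Partners of the members were read from lists of the surrounding pathways. In the system of superoxide dismutases, catalase, peroxiredoxins and thioredoxins, 6 of 14 tested genes were positive and 8 negative (median −0.058). At an unadjusted limma p under 0.05, 1 was higher and 2 lower, beside 6.44% and 7.24% of all tested probe sets. Srxn1, the sulfiredoxin that restores overoxidised peroxiredoxins, read 10.38, 10.53 and 10.30 in knockdown arrays 1 to 3, against 10.93, 10.79 and 10.97 in wild type arrays 1 to 3. All knockdown arrays lay below all wild type arrays, as for 7.33% of all tested probe sets. The difference was −0.50 (limma adjusted p = 0.226), beside −0.61, −0.41 and 0.0062 at the dimmer Srxn1 probe sets. Prdx4, the peroxiredoxin of the endoplasmic reticulum, differed by −0.31 (dimmer probe sets −0.29 and −0.15), and the mitochondrial thioredoxin reductase gene Txnrd2 by 0.29 (dimmer probe sets 0.014 to 0.34). The mitochondrial genes Txn2 and Sod2 differed by −0.20 and −0.14.

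The glutathione system had 6 of 14 tested genes positive and 8 negative (median −0.11). Beside 7.24% lower and 6.44% higher of all tested probe sets, 1 gene was lower and 0 higher at an unadjusted limma p under 0.05. That gene was Gpx4, the glutathione peroxidase that protects membrane lipids, which read 13.02, 13.22 and 13.04 in knockdown arrays 1 to 3, against 13.41, 13.38 and 13.39 in wild type arrays 1 to 3 (difference −0.30, limma adjusted p = 0.322). Gclm, a subunit of the enzyme that starts glutathione synthesis, differed by −0.35 (dimmer probe set −0.039), and the glutathione reductase gene Gsr by −0.20. Gsto1 and Gstt1, which encode glutathione transferases, differed by 0.22 and −0.28.

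In the pentose phosphate pathway, which supplies NADPH, 4 of 9 tested genes were positive and 5 negative (median −0.056). At an unadjusted limma p under 0.05, 1 was higher and 2 lower, beside 6.44% and 7.24% of all tested probe sets. The ribose phosphate isomerase gene Rpia read 10.83, 10.67 and 10.49 in knockdown arrays 1 to 3, against 10.31, 10.26 and 10.24 in wild type arrays 1 to 3 (difference 0.39, limma adjusted p = 0.262). Pgd, the phosphogluconate dehydrogenase gene, whose enzyme makes NADPH, differed by −0.30 (dimmer probe sets −0.25 to −0.39). The transaldolase gene Taldo1 differed by −0.32, the transketolase gene Tkt by −0.16, and H6pd by −0.14.

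Genes of the NRF2 and BACH1 regulators, which control many antioxidant genes, had 5 of 13 tested members positive and 8 negative (median −0.10). At an unadjusted limma p under 0.05, 1 was higher and 2 lower, beside 6.44% and 7.24% of all tested probe sets. Nqo1, a quinone reductase gene and standard NRF2 target, read 5.30, 5.35 and 5.18 in knockdown arrays 1 to 3, against 6.49, 5.79 and 5.82 in wild type arrays 1 to 3. All its knockdown arrays lay below all wild type arrays, as for 7.33% of all tested probe sets. The Nqo1 difference was −0.75 (SE 0.17, limma adjusted p = 0.211). The regulator genes Nfe2l2 (which encodes NRF2) and Nfe2 differed by −0.20 and −0.30, and Nfe2l2 by 0.047 at its other probe set. Foxo3, a transcription factor gene that acts on antioxidant genes in red cell precursors, differed by 0.48 and by 0.51 at its other probe set (limma adjusted p = 0.309 and 0.233). Of the genes tested in these pathway lists, 0 passed after adjustment over all probe sets.

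**Figure D4:**
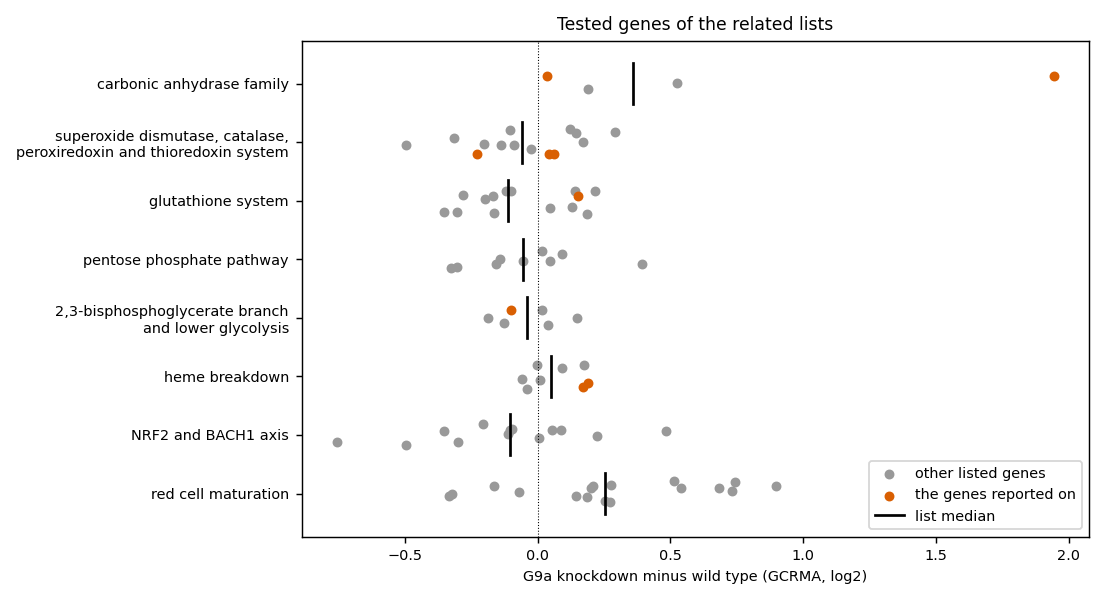
Difference of each tested gene (knockdown minus wild type, GCRMA log2, horizontal axis) in 8 lists of related genes, with the genes reported on in orange, other listed genes in grey and a black bar at each list's median. Car1 lies far to the right of every other point, and the list medians lie between −0.11 and 0.36.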

How the data were processed

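Per the labels, every one of the 6 arrays was summarised by MAS5 and by GCRMA. MAS5 was deposited as linear intensity, with a 2% trimmed mean of 500 on each array as computed from the values, and the deposited GCRMA columns hold log2 values (0.69 to 16.49). The sources used here give no versions or settings. Gene names came from GEO's annotation of the platform. The 64 control probe sets were left out.

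The 17028 probe sets above log2 4 on at least 3 of 6 arrays were fitted with limma 3.58.1 in R 4.3.3 (lmFit, eBayes, group plus replicate number as a block), with Benjamini-Hochberg adjustment over all of them and a threshold of 0.05. MAS5 values were fitted as log2(value + 1). The code was tested on simulated data. With 3 arrays a group, the number of arrays limits the precision. The block used the replicate numbers in the labels, which do not state that same-numbered arrays are pairs. For same-numbered arrays, deviations around group means had Pearson's r of 0.72, 0.57 and 0.37, while other pairs gave −0.59 to 0.17. Centring on group means pushes the other pairs negative once same-numbered ones are positive, so they are not separate evidence. These correlations come from the same values that were tested, so they are no independent check of the pairing. For a listed gene, the brightest tested probe set stood for the gene.

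The text names every member probe set, Ehmt2, of each list up to 5 other genes with the lowest p, and the 3 genes closest in profile to Car1 and Hmox1. Car3, Slc4a1, Bcl2l1, Tspo2 and the cell type markers named were chosen after their values were seen. A further gene of the set is not reported here. Members and lists were chosen with earlier results of these data known. Alternatives were the unblocked fit, MAS5, no filter, a mean above log2 6, each number left out, median-centred arrays and a variance trend.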

Additional observations from a re-analysis of the deposited data

How the results depend on the processing

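The number of probe sets called over the whole array was 2 with the replicate block, 1 with no replicate block, 0 in MAS5, 0 with no filter, 7 with a mean above log2 6, 8 with a variance trend, and 0 to 1 with a replicate number left out. The number of member probe sets called was 0, and 1 (Car1) with a mean above log2 6 and with a variance trend. Members at an unadjusted p under 0.05 numbered 1, and 2 with no filter and with a variance trend, and 1 to 2 with a number left out. Car1 was among them in every setting. The other member was Prdx2 at 1418506_a_at with no filter and with a variance trend, and Hmox1 without number 3. The share of all tested probe sets at that level is given for the main fit only (13.7%). Whether the alternatives raised it as well cannot be read from these counts. Members with a positive difference numbered 10, and 6 to 10 with a number left out. The replicate block does not alter a difference itself, so 10 of 15 members were positive in both fits by construction. The calls could differ, and 0 members were called with or without the block. In MAS5 the sign turned for Cat at 1416430_at (−0.063) and Sod1 at 1459976_s_at (0.14). With each replicate number left out, differences ranged over signs for Car2 (−0.12 to 0.13), Cat (−0.20 to 0.24 at 1416429_a_at and −0.061 to 0.13 at 1416430_at), Prdx2 at 1430979_a_at (−0.054 to 0.23), Gpx1 (−0.011 to 0.24), Blvrb (−0.049 to 0.32), Hmox1 (−0.53 to 0.69) and Sod1 at 1451124_at (−0.041 to 0.17). All of these differences are uncalled. The cause was not tested for any change except where fewer arrays or fewer probe sets entered by construction. An array left out of a blocked fit takes its partner with it, so numbers were left out as pairs. Signal over background limits what the 2 dim Sod1 probe sets can show.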
